A study of Mus musculus with 6 samples.

Results

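The genes examined here are the 10 genes of the carnitine shuttle and of its control by malonyl-CoA: the carnitine palmitoyltransferases Cpt1a, Cpt1b, Cpt1c and Cpt2, the carnitine-acylcarnitine carrier Slc25a20, the carnitine acyltransferases Crat and Crot, the acetyl-CoA carboxylases Acaca and Acacb, and the malonyl-CoA decarboxylase Mlycd. They were taken by name from their place in the pathway, with earlier results of these data known. All 10 were found among the 16448 genes with values. A gene was tested when 3 or more of the 6 samples reached 10, which 11364 genes did, among them 9 of the 10; Cpt1c did not. RNA-seq had been performed on cardiomyocytes (CMs) isolated from adult C57BL/6 mice of 8 to 12 weeks. The 3 Cpt1bcKO samples carried the αMHC-Cre transgene (αMHC-Cre pos/+) and Cpt1b fl/fl alleles, and the 3 CtrlCre samples carried the same transgene with wild-type Cpt1b +/+ alleles, so that Cre recombinase was present in both groups. The αMHC promoter drives Cre in CMs, which leaves Cpt1b intact in the other cells of the heart. The question addressed is how RNA of the genes for mitochondrial fatty acid import differed once the muscle isoform of its first enzyme had been deleted. Values are normalized counts, and nothing in the labels ties a sample to more than its group and number, so the p-values measure the spread between these samples.

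Long-chain fatty acids cross the inner mitochondrial membrane as carnitine esters. A CPT1 isoform in the outer membrane moves the acyl group from CoA to carnitine, the carrier Slc25a20 exchanges acylcarnitine for free carnitine, and Cpt2 on the matrix side restores acyl-CoA for β-oxidation. Malonyl-CoA, made by the acetyl-CoA carboxylases and removed by Mlycd, inhibits CPT1 and so sets the rate of import. Cpt1b is the muscle isoform and the main CPT1 of the adult heart, Cpt1a is the liver isoform and Cpt1c a brain isoform. Crat acts on short-chain and Crot, a peroxisomal enzyme, on medium-chain acyl groups.

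Cpt1b lies at chr15:89416405-89425863 on the minus strand of GRCm38. The study's floxed allele has loxP sites around exons 10 and 11. In the 19-exon principal transcript of the GENCODE release 21 annotation, whose numbering is taken here because the study names no transcript, these are chr15:89421345-89421540 and chr15:89420692-89420877. Both exons are wholly coding, and with 196 and 186 bases they make up 13.2% of the 2895 bases of that transcript, so most of a gene-level count comes from exons that the deletion leaves in place. They are shown because they are the part that recombination removes (coding strand, 5′ to 3′):
Cpt1b exon 10: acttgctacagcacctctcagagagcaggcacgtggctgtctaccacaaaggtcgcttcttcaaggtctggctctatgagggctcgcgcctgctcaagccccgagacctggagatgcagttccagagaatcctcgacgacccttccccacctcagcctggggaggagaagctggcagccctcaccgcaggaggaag
Cpt1b exon 11: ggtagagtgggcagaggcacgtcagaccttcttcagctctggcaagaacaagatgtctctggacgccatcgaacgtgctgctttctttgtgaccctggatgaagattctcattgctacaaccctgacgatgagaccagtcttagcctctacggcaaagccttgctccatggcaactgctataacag

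The 382 removed bases leave a remainder of 1 when divided by 3. Joined to exon 9, exon 12 is then read in another frame and meets a stop codon after 47 bases. This is read from the reference transcript, since the deposited values are sums per gene and show no junctions. The joined sequence is shown from the last 30 bases of exon 9 to that stop, which is in capitals:
Cpt1b exon 9 to exon 12: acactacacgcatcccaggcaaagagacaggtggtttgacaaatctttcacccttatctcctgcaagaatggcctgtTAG
The study's reverse quantitative PCR primer for Cpt1b matches exon 9 at chr15:89422125-89422209, outside the floxed exons. Exon 9 is shown with the matching bases in capitals, because an amplicon primed there can also be made from a transcript without exons 10 and 11 if the forward primer lies upstream:
Cpt1b exon 9: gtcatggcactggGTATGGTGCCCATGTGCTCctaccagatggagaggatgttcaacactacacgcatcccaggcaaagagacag
The forward primer had no exact match in this transcript and was not placed. The paper's evidence for loss of Cpt1b function does not rest on this primer alone. It also reports efficient inhibition of long-chain fatty acid use and strongly lowered medium- and long-chain acylcarnitines in Cpt1b-deficient CMs.

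The deleted gene was the only member that passed the test. Cpt1b was 1861, 893 and 1443 in CtrlCre samples 1 to 3 and 211, 353 and 285 in Cpt1bcKO samples 1 to 3. The groups were far apart, with the highest Cpt1bcKO sample below the lowest control. The group means were 1399 ± 485.5 (SD, n = 3) and 283 ± 71.0 (SD, n = 3). The Cpt1bcKO samples held 15.1, 25.2 and 20.4% of the control mean. The log2 fold change was -2.27 (SE 0.27, 95% interval -2.86 to -1.68, adjusted p = 0.00338, limma with Benjamini-Hochberg adjustment over all genes tested). Of all genes tested, 0.906% passed this test with lower values in Cpt1bcKO, 0.660% with higher values, and 1.57% in either direction. A value summed over the gene does not tell intact transcripts from those without exons 10 and 11. The call held when any single sample was left out, and was lost without sample 3 of both groups (-2.24, adjusted p = 0.104, limma) and with one prior variance for all genes (-2.27, adjusted p = 0.0563, limma). In Cpt1bcKO sample 3, mitochondrial and ribosomal RNA genes made up 89.6% of the sum of values against 74.8 to 83.8% in the other samples, and without this sample the Cpt1b difference was -2.29 (adjusted p = 0.0109, limma).

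The second CPT1 isoform did not pass the test. Cpt1a (chr19:3323301-3385732, plus strand), the isoform of liver and many other tissues, was 360, 341 and 229 in CtrlCre and 367, 386 and 351 in Cpt1bcKO. The groups overlapped, since CtrlCre sample 1 lay inside the Cpt1bcKO range, while CtrlCre sample 3 was the lowest of the 6. The means were 310 ± 70.8 and 368 ± 17.5 (SD, n = 3 each). On the log2 scale the difference was 0.27 (SE 0.19, 95% interval -0.14 to 0.69, adjusted p = 0.566, limma). The upper end of that interval is a 1.61-fold higher level. Without CtrlCre sample 3 the difference was 0.07. Cpt1c (chr7:44959372-44974851, minus strand), an isoform of the endoplasmic reticulum of neurons, was 1, 0 and 2 in CtrlCre and 1, 1 and 8 in Cpt1bcKO, too low for a test.

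**Figure D1:**
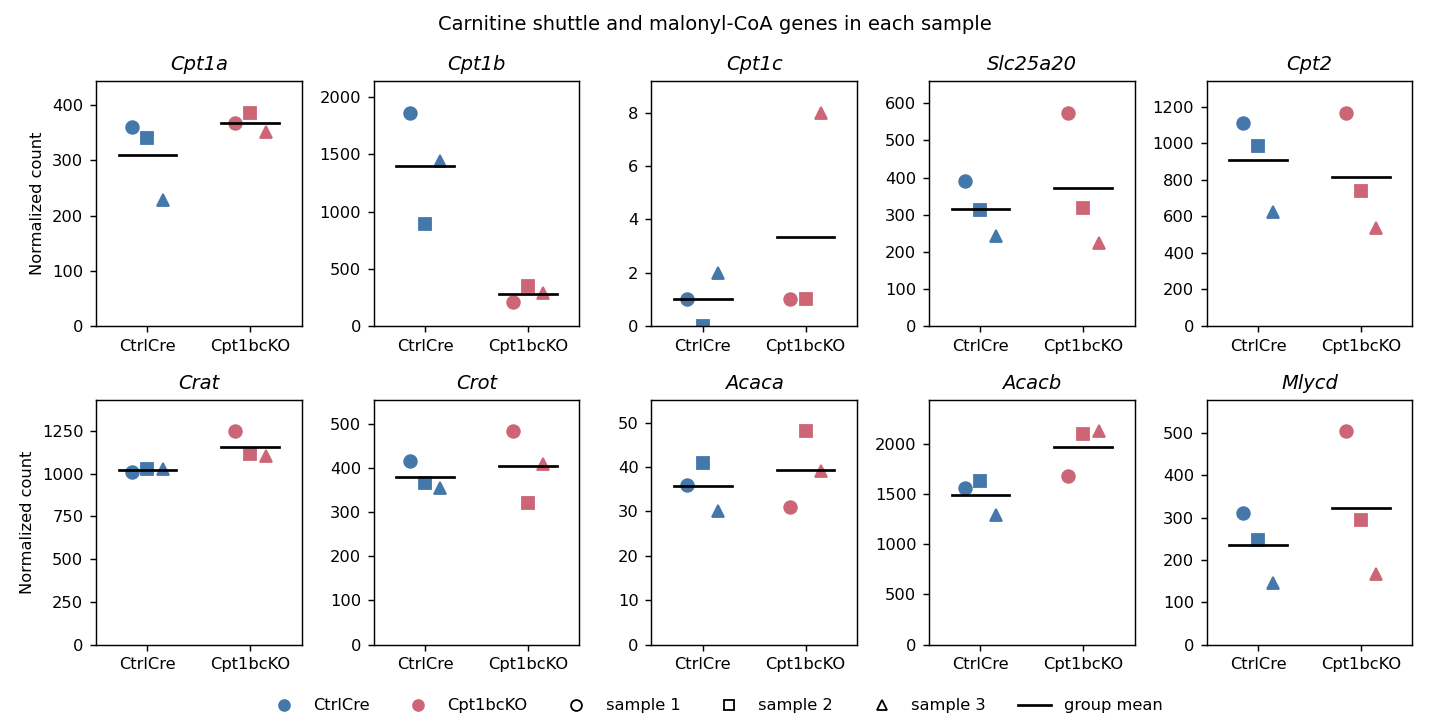
Normalized counts of the 10 genes in each sample. Each panel is 1 gene with its own vertical axis from 0, the horizontal axis gives the group, symbols mark samples 1, 2 and 3 of each group and lines the group means. The 3 Cpt1bcKO samples lie between 211 and 353 for Cpt1b, all below the controls, while Acacb and Crat lie higher without overlap and the others overlap.

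Between genes, levels can be compared only per length, and for this each normalized count was divided by the summed exon length of its gene in kb. On this scale Cpt1b stood at 414.9 ± 144.0 in CtrlCre and 83.9 ± 21.1 in Cpt1bcKO (SD, n = 3 each). Cpt1a stood at 40.6 ± 9.3 and 48.2 ± 2.3. Together the 3 CPT1 isoforms summed to 455.6 ± 144.9 per kb in CtrlCre and 132.7 ± 22.3 per kb in Cpt1bcKO. Cpt1b was 92.1, 85.6 and 93.4% of that sum in the CtrlCre samples and 56.5, 67.4 and 64.1% in the Cpt1bcKO samples. The liver isoform went from 9.61 ± 4.22% to 36.9 ± 5.71% of the sum. In no Cpt1bcKO sample did Cpt1a exceed Cpt1b per kb of exon. That order depends on the length used: per kb of the longest transcript, Cpt1a was above Cpt1b in Cpt1bcKO sample 1, where Cpt1b was 46.1% of the sum. Both lengths count exons 10 and 11, at 11.3% of the exon bases and 13.2% of the transcript. Where Cpt1b RNA in Cpt1bcKO lacked them, its level per kb is understated. How much of it lacked them was not tested.

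Downstream of CPT1, neither the carrier nor Cpt2 differed beyond the spread between samples. Slc25a20 (chr9:108662098-108684641, plus strand), the inner-membrane carrier, was 390, 313 and 243 in CtrlCre and 574, 318 and 223 in Cpt1bcKO. Both the highest and the lowest of the 6 values were Cpt1bcKO samples, and the log2 fold change was 0.15 (SE 0.31, 95% interval -0.53 to 0.83, adjusted p = 0.867, limma). Cpt2 (chr4:107903981-107923610, minus strand), the matrix-side transferase, was 1113, 983 and 622 in CtrlCre and 1166, 738 and 537 in Cpt1bcKO. It was the only member besides Cpt1b with an estimate below 0, at -0.19 (SE 0.29, 95% interval -0.82 to 0.45, adjusted p = 0.819, limma). Per kb of exon Cpt2 was the second most abundant member, at 378.9 ± 106.4 in CtrlCre, which does not differ from Cpt1b beyond their spread, and 340.3 ± 134.4 in Cpt1bcKO, where it was first.

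Cpt2, Slc25a20 and the decarboxylase Mlycd shared a pattern across samples that the genotype does not describe: sample 1 was the highest and sample 3 the lowest in each group. Of all genes tested, 6.41% had this order in both groups. Sample 1 of each group also differed from the others in sex-linked RNA, with Xist, expressed from the inactive X chromosome, at 957 in CtrlCre and 1080 in Cpt1bcKO against 23 to 78 in the other 4 samples. Y-linked genes summed to 1 in CtrlCre sample 1 and 0 in Cpt1bcKO sample 1, against 1378 to 1688 in the other 4. This is the RNA pattern of female mice in the samples numbered 1 and of male mice in the others, so each group was of mixed sex. With both samples numbered 1 left out, in the remaining 2 samples a group, the log2 fold change of Cpt1b was -1.84 (adjusted p = 0.00574, limma) and that of Slc25a20 -0.05, and no other member passed the test.

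The carnitine acyltransferases that do not serve long-chain import also failed to pass. Crat (chr2:30400471-30415813, minus strand) moves acetyl and other short-chain groups between CoA and carnitine and so buffers the acetyl-CoA pool. It was 1009, 1029 and 1031 in CtrlCre and 1248, 1117 and 1104 in Cpt1bcKO. Every Cpt1bcKO value was above every control, as in 9.13% of all genes tested, with means of 1023 ± 12.2 and 1156 ± 79.7 (SD, n = 3 each). On the log2 scale this came to 0.17 (SE 0.13, 95% interval -0.11 to 0.46, adjusted p = 0.589, limma), so the estimate is small and its upper bound is a 1.37-fold higher level. A pair of opposite-strand genes overlaps Crat in the annotation, Dolpp1 with a mean value of 11.7 and Gm16323 with a mean of 4, both far below it. Crot (chr5:8966033-8997324, minus strand), which prepares shortened acyl groups for leaving the peroxisome, was 415, 367 and 355 in CtrlCre and 483, 320 and 409 in Cpt1bcKO. The groups overlapped, with a log2 fold change of 0.08 (SE 0.18, 95% interval -0.32 to 0.47, adjusted p = 0.889, limma).

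Among the malonyl-CoA enzymes the estimates were above 0, and none passed the test. Acacb (chr5:114146535-114250761, plus strand), the acetyl-CoA carboxylase of the outer mitochondrial membrane whose product acts on CPT1, was 1555, 1626 and 1285 in CtrlCre and 1676, 2095 and 2120 in Cpt1bcKO. All 3 Cpt1bcKO values lay above the controls, although sample 1 did so by a narrow margin. The means were 1489 ± 179.9 and 1964 ± 249.4 (SD, n = 3 each). The estimated log2 difference was 0.40 (SE 0.15, 95% interval 0.06 to 0.74). Its unadjusted p was 0.0267 and its adjusted p 0.277 (limma). An unadjusted p below 0.05 with a higher level was found for 6.66% of all genes tested and with a lower level for 7.22%, and Acacb was the only one of the 8 members other than Cpt1b to have one. The adjusted p ranged from 0.0911 to 0.831 over the alternatives.

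Acaca (chr11:84173122-84401651, plus strand), the cytosolic carboxylase of fatty acid synthesis, was low, at 36, 41 and 30 in CtrlCre and 31, 48 and 39 in Cpt1bcKO. The ranges largely coincided, with a log2 fold change of 0.13 (SE 0.27, 95% interval -0.47 to 0.73, adjusted p = 0.876, limma). Per kb of exon, Acacb stood at 154.6 ± 18.7 in CtrlCre and 203.9 ± 25.9 in Cpt1bcKO, and Acaca at 2.09 ± 0.32 and 2.30 ± 0.50. Acacb therefore made up 98.7 ± 0.06% of the carboxylase RNA per kb in CtrlCre and 98.9 ± 0.14% in Cpt1bcKO.

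Mlycd (chr8:119394878-119411102, plus strand), which returns malonyl-CoA to acetyl-CoA and thereby relieves CPT1, was 311, 247 and 146 in CtrlCre and 504, 295 and 167 in Cpt1bcKO. Sample 1 was above the other samples of its group and the groups overlapped, so that a log2 fold change of 0.38 had an SE of 0.38 (95% interval -0.45 to 1.22, adjusted p = 0.702, limma). The estimate was close to that of Acacb in size, with a wider interval that includes 0. Without Cpt1bcKO sample 1 it was -0.01, and without Cpt1bcKO sample 3 it was 0.78.

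**Figure D2:**
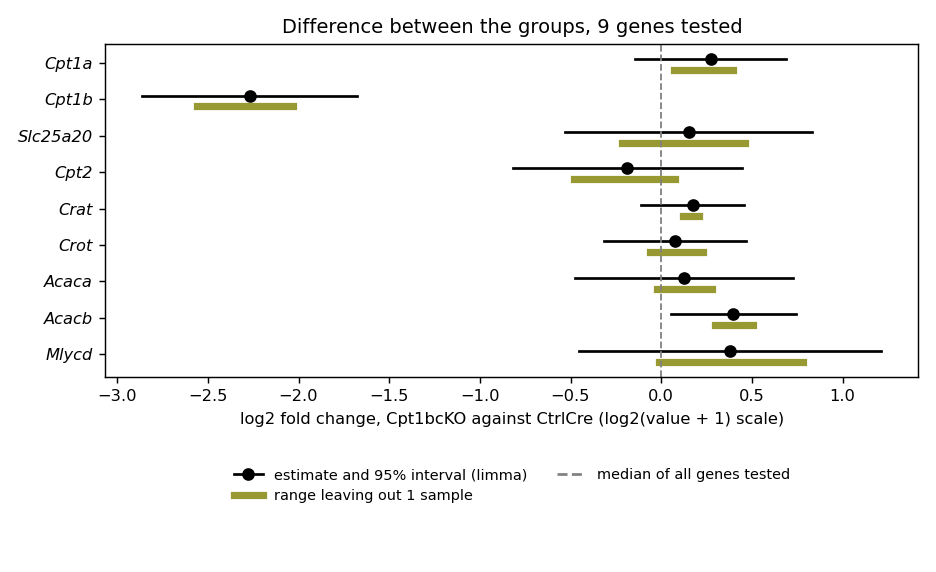
log2 fold change of Cpt1bcKO against CtrlCre for the 9 genes tested (horizontal axis, log2 of value + 1). Points and black lines are the limma estimate and its 95% interval, thick lines the range when 1 sample was left out, and the dashed line the median of all genes tested. Cpt1b lies at -2.27 and the other 8 estimates between -0.19 and 0.40.

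Leaving Cpt1b aside, 7 of the 8 tested members had an estimate above 0, against 49.8% of all genes tested, and their median log2 fold change was 0.16 against 0.00 for all genes. Higher values without overlap were found for 2 of the 8, Crat and Acacb, and lower values without overlap for none, where 9.13 and 9.60% of all genes tested had them. The 95% intervals of the 8 genes reached from -0.82 to 1.22. The median moved between 0.05 and 0.26 when single samples were left out. The tally of signs depended on Cpt1bcKO sample 1. Without it, Slc25a20 (-0.22), Crot (-0.064) and Mlycd (-0.012) joined Cpt2 below 0, while Cpt1a, Crat, Acaca and Acacb stayed above 0. With each sample scaled to its sum without mitochondrial and ribosomal RNA genes, the median of all genes tested moved to 0.11 and that of the 8 members to 0.27, so a comparison with all genes is little altered by this choice.

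**Figure D3:**
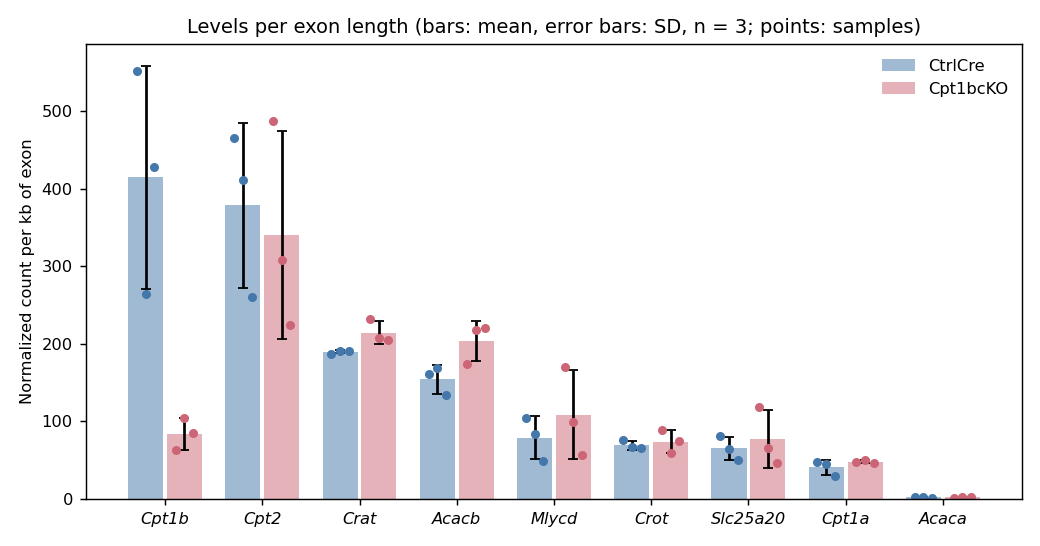
Normalized count per kb of exon (vertical axis, linear from 0) for the 9 genes tested, ordered by the control mean. Bars are group means, error bars the SD (n = 3) and points the samples. Cpt1b stands first in CtrlCre at 414.9 per kb and at 83.9 per kb in Cpt1bcKO, below Cpt2, Crat, Acacb and Mlycd.

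In CtrlCre the order per kb of exon was Cpt1b, Cpt2, Crat, Acacb, Mlycd, Crot, Slc25a20, Cpt1a, Acaca and Cpt1c. Crat (189.9 ± 2.3) and Acacb (154.6 ± 18.7) were apart from each other. Mlycd (79.1 ± 28.03), Crot (69.5 ± 5.8) and Slc25a20 (65.1 ± 15.2) did not differ beyond their spread. The order of these 3 depends on the length used: per kb of the longest transcript, Crot (126.5 ± 10.6) and Slc25a20 (114.6 ± 26.7) stood above Mlycd (80.01 ± 28.4). After deletion Cpt1b fell to a level within 1 SD of Mlycd (108.5 ± 57.3), Slc25a20 (76.7 ± 37.5) and Crot (74.1 ± 14.96). Per kb of the longest transcript it stood at 97.75 ± 24.5, below Slc25a20 at 135.1, Crot at 134.8 and Mlycd at 109.8. Cpt1a thus stood above Acaca and Cpt1c alone in CtrlCre, and in Cpt1bcKO it kept that place.

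Ratios of 2 genes within a sample hardly depend on how that sample was scaled; they were taken on value + 1, which leaves a small effect of scaling. An exact two-sided permutation test of 3 against 3 samples cannot give a p below 0.10, and 5 ratios were compared. Cpt1a to Cpt1b was 0.194, 0.383 and 0.159 in the CtrlCre samples and 1.74, 1.09 and 1.23 in the Cpt1bcKO samples. All 3 Cpt1bcKO ratios were above all controls, a 5.83-fold difference (log2 ratio -2.13 ± 0.66 and 0.41 ± 0.35, SD, n = 3 each, exact p = 0.10, adjusted over the 5 ratios 0.167). Cpt2 to Cpt1b was 0.598, 1.10 and 0.431 against 5.51, 2.09 and 1.88, a 4.24-fold difference (exact p = 0.10, adjusted 0.167). Cpt1b is the denominator of both, and neither Cpt1a nor Cpt2 passed a test of its own.

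The remaining ratios pair the enzymes of malonyl-CoA and the acyltransferases. Acaca to Acacb was 0.0238, 0.0258 and 0.0241 in CtrlCre and 0.0191, 0.0234 and 0.0189 in Cpt1bcKO. The Cpt1bcKO ratios were lower without overlap, 0.828-fold of control, although Cpt1bcKO sample 2 lay just under the lowest control (exact p = 0.10, adjusted 0.167). Acacb to Mlycd, the source and the removal of malonyl-CoA, spanned 4.99 to 8.75 in CtrlCre and 3.32 to 12.6 in Cpt1bcKO, a log2 difference of 0.02 (exact p = 1). Crat to Crot differed by 0.10 on the log2 scale (exact p = 0.70, adjusted 0.875) with overlapping groups.

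**Figure D4:**
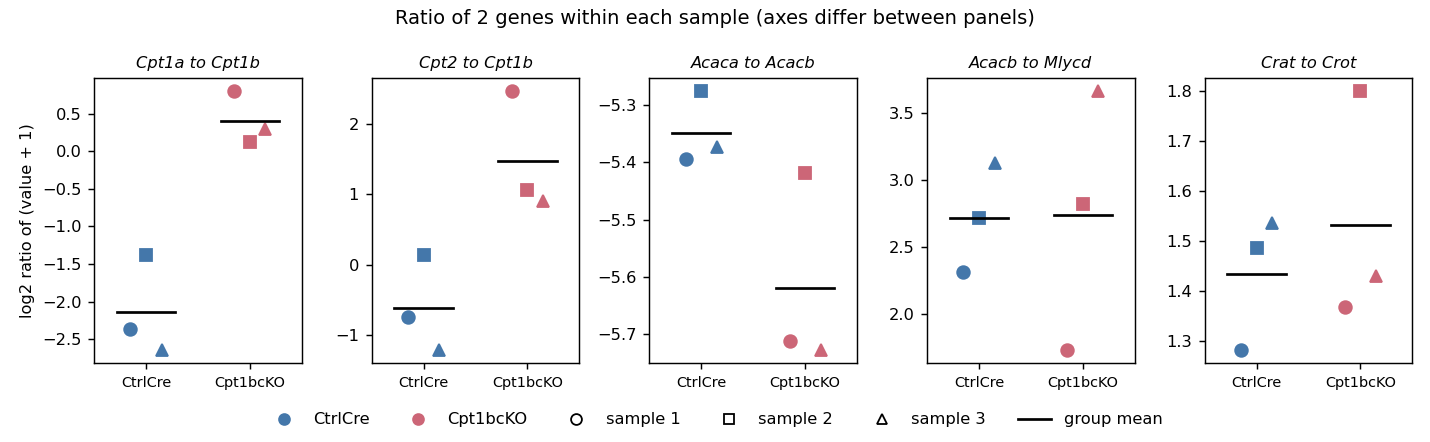
log2 ratio of 2 genes within each sample (vertical axes, different in each panel and not starting at 0) by group. Symbols mark samples 1, 2 and 3 and lines the group means. Cpt1a to Cpt1b and Cpt2 to Cpt1b are higher in every Cpt1bcKO sample and Acaca to Acacb lower, while the other ratios overlap.

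Genes around the shuttle were examined in 7 lists, of which 2 had a member that passed the test. These lists, too, were chosen with earlier results of these data known. In the list of malonyl-CoA sources and users and AMPK, 1 of 18 genes tested passed, lower in Cpt1bcKO, against 0.906% of all genes tested. This was Mid1ip1 (chrX:10717390-10719690), whose protein promotes polymerization and activity of acetyl-CoA carboxylase. It was 432, 299 and 270 in CtrlCre and 74, 53 and 149 in Cpt1bcKO, with every Cpt1bcKO value below every control. The log2 fold change was -1.95 (SE 0.34, 95% interval -2.70 to -1.21, adjusted p = 0.0193, limma). The estimate stayed between -2.37 and -1.63 when single samples were left out, but the adjusted p then ranged from 0.00336 to 0.0841, and was above 0.05 without any 1 of the CtrlCre samples or without Cpt1bcKO sample 2. Leaving out CtrlCre sample 1 gave 0.0681, CtrlCre sample 2 gave 0.0692, CtrlCre sample 3 gave 0.0592 and Cpt1bcKO sample 2 gave 0.0841.

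The other genes of that list did not pass. Fasn, the fatty acid synthase that uses malonyl-CoA, was 93, 96 and 75 in CtrlCre and 49, 78 and 91 in Cpt1bcKO. Prkaa2, the catalytic AMPK subunit prominent in heart, was 1353, 1755 and 1501 against 1280, 1378 and 1372, with overlap. Thrsp, a paralogue of Mid1ip1, was 94, 106 and 129 against 130, 133 and 175, higher without overlap (log2 fold change 0.41, SE 0.20, adjusted p = 0.404, limma), so that the pair had estimates of opposite sign. The list's median was -0.07, with 9 of 18 estimates above 0.

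In the list of carnitine supply, 1 of 6 genes tested passed, higher in Cpt1bcKO, against 0.660% of all genes tested. Shmt1 (chr11:60788104-60811265, minus strand), a serine hydroxymethyltransferase whose main role is in folate-dependent one-carbon metabolism and which is in the list for a proposed step of carnitine synthesis, was 52, 45 and 57 in CtrlCre and 138, 198 and 184 in Cpt1bcKO. Its log2 fold change was 1.73 (SE 0.21, 95% interval 1.26 to 2.19, adjusted p = 0.00382, limma), and the call held without any single sample. It was lost without sample 2 of both groups (1.53, adjusted p = 0.277, limma) and without sample 3 of both groups (1.75, adjusted p = 0.0812, limma). Slc22a5, the carnitine transporter of the plasma membrane, was 68, 87 and 40 against 110, 76 and 84 and did not pass (log2 fold change 0.52, SE 0.29, adjusted p = 0.466, limma). The list's median was 0.45 with all 6 estimates above 0, against 49.8% of all genes tested. Bbox1, the last enzyme of carnitine synthesis, was not among the genes with values.

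Fatty acid uptake and activation came to 14 genes tested, none of which passed, with a median of 0.04. Acsl3, a long-chain acyl-CoA synthetase of the endoplasmic reticulum and lipid droplets, was 25, 29 and 26 in CtrlCre and 41, 63 and 82 in Cpt1bcKO, higher without overlap (log2 fold change 1.14, SE 0.29, adjusted p = 0.0997, limma). It passed without Cpt1bcKO sample 1 (1.40, adjusted p = 0.0290, limma) and without sample 1 of both groups (1.36, adjusted p = 0.0484, limma). Acsl4, which prefers arachidonate, was 129, 136 and 123 against 77, 107 and 113 (-0.40, SE 0.20, adjusted p = 0.406, limma). Acsl1, the main synthetase supplying CPT1 in heart, was 4325, 4514 and 3530 against 4302, 3580 and 2635, with overlap.

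Matrix β-oxidation, which takes up what the shuttle delivers, had none of 17 genes passing and a median of 0.07. Hadhb, the β subunit of the trifunctional protein, was 2600, 2942 and 2131 in CtrlCre and 3420, 4176 and 3063 in Cpt1bcKO (log2 fold change 0.47, SE 0.17, adjusted p = 0.239, limma). Its partner Hadha was 8854, 6729 and 5720 against 9019, 6714 and 4811, with overlap. Acad9, an acyl-CoA dehydrogenase that also assembles complex I, was 108, 106 and 90 against 129, 148 and 140 (0.45, SE 0.18, adjusted p = 0.277, limma). The order noted for Cpt2, Slc25a20 and Mlycd, sample 1 highest and sample 3 lowest in both groups, was present in 9 of these 17 genes. It was present in none of the 18 malonyl-CoA genes and in 6.41% of all genes tested.

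Peroxisomal oxidation and acyl export had none of 13 genes passing and a median of 0.20. Of the 13 estimates, 9 were above 0, against 49.8% of all genes tested. The groups did not overlap for 5 genes with higher and 2 with lower values in Cpt1bcKO, where 9.13 and 9.60% of all genes tested had them.

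The list of PPAR and ERR regulators and targets had none of 22 genes passing and a median of 0.13. Pdk4, the kinase that switches off pyruvate dehydrogenase, was 5605, 3909 and 1573 in CtrlCre and 21655, 8824 and 5458 in Cpt1bcKO. The groups overlapped because CtrlCre sample 1 exceeded Cpt1bcKO sample 3 (log2 fold change 1.64, SE 0.51, adjusted p = 0.179, limma). Cidea, a lipid droplet protein, was 84, 51 and 48 against 114, 90 and 80 (0.66, SE 0.26, adjusted p = 0.287, limma). The order with sample 1 highest and sample 3 lowest in both groups was present in 8 of these 22 genes, against 6.41% of all genes tested.

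**Figure D5:**
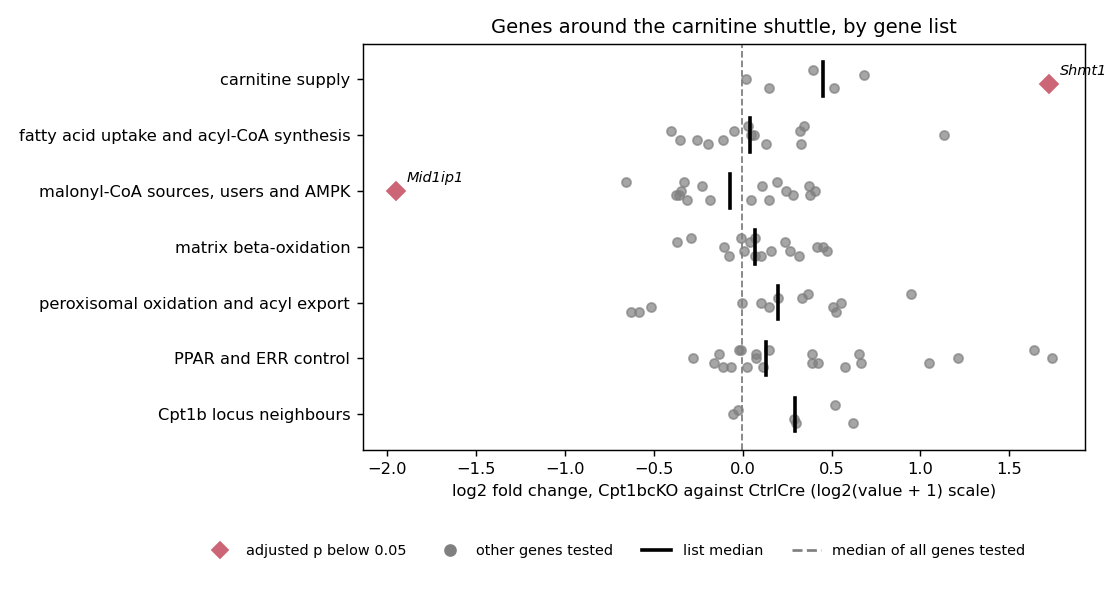
log2 fold change of Cpt1bcKO against CtrlCre (horizontal axis, log2 of value + 1) for the genes tested in each of 7 lists. Grey points are genes that did not pass, diamonds genes with an adjusted p below 0.05, black bars list medians and the dashed line the median of all genes tested. Only Shmt1 at 1.73 and Mid1ip1 at -1.95 passed.

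Neighbours of Cpt1b on chromosome 15 gave no call. Chkb (chr15:89426367-89429899, minus strand), a choline kinase that ends just upstream of Cpt1b, was 74, 68 and 55 in CtrlCre and 85, 71 and 84 in Cpt1bcKO (log2 fold change 0.29, SE 0.21, adjusted p = 0.588, limma). Rabl2, a small GTPase, was 15, 16 and 11 against 18, 22 and 21 (0.52, SE 0.35, adjusted p = 0.552, limma). None of the 6 neighbours tested passed, and 4 had estimates above 0. A read-through gene of the reference annotation, Gm44502, spans Cpt1b on the same strand and was not among the genes with values. Reads on several genes were left out of the counts, so the Cpt1b values would lack reads if the annotation used for counting held this gene, which was not tested. Across the 6 samples, the genes with the profile most like Cpt1b among the 6796 with a mean of at least 50 were Ehbp1 (Pearson r = 0.992), Lactb2 (r = 0.991) and Cenpf (r = 0.989). With 3 samples of low and 3 of high Cpt1b, such r values are largely set by the difference between the groups, and they are given as a description.

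Cell type markers were read for the same samples. All 11 CM markers were present, from a summed level of 293821 to 381672 in CtrlCre and 224148 to 265364 in Cpt1bcKO, and all 11 estimates were below 0, with none passing the test; Myh6, whose promoter drives Cre, was 149899, 104814 and 110093 against 83563, 82872 and 93434. All 7 fibroblast markers tested had estimates above 0, against 49.8% of all genes tested, with a median of 1.12. Their sums were 498 to 785 in CtrlCre and 1108 to 1338 in Cpt1bcKO. Col1a1 and Lum passed, where 0.660% of all genes tested passed with higher values. Of the 7, 6 were higher without overlap, against 9.13% of all genes tested. All 7 had an unadjusted p below 0.05 (limma) with higher values, against 6.66% of all genes tested. Their most abundant gene, Dcn, was 196, 302 and 287 against 404, 429 and 281, with overlap. The endothelial sum was 1256 to 2577 in CtrlCre and 2256 to 2615 in Cpt1bcKO (Kdr 401, 844 and 976 against 981, 1000 and 782). All 8 endothelial estimates were above 0, with a median of 0.32 and none passing, and Tie1 was higher without overlap (log2 fold change 0.61, unadjusted p = 0.0239, limma). CtrlCre sample 1 had the lowest endothelial sum, at 1256. Without it the Kdr estimate moved from 0.40 to 0.01. The mural sum was 1109 to 2313 and 1175 to 1739. Rgs5 was the most abundant mural marker on average (463, 1213 and 1402 against 1172, 1107 and 824), and of the 6 mural markers tested 3 had estimates above 0 and 3 below, with none passing. Acta2, smooth muscle actin, was lower without overlap, at 526, 244 and 391 against 230, 134 and 132 (log2 fold change -1.20, SE 0.30, unadjusted p = 0.00207, adjusted p = 0.0835, limma), and Cspg4 had an estimate of -0.66 (adjusted p = 0.362, limma). Leukocyte markers summed to 93 to 140 and 115 to 133, with Lyz2 at 38 to 52 in all 6 samples. Of the atrial markers Nppa was higher, at 177, 93 and 144 against 683, 452 and 384 (log2 fold change 1.87, SE 0.27, adjusted p = 0.00917, limma), Myl4 had an estimate of 0.35 with overlap, and Myl7 stood at 2 to 19. The Nppa call was lost without Cpt1bcKO sample 2 (1.93, adjusted p = 0.0527), with one prior variance (1.87, 0.0772), without sample 2 of both groups (1.68, 0.281) and without sample 3 of both groups (2.10, 0.0938), all with limma. Erythroid markers summed to at most 20, with Alas2 at 0 to 19, and no adipocyte marker was among the genes with values. The part of these differences in the values of Cpt1b or the other members was not tested. In bulk RNA, fewer cells of a type and less RNA per cell cannot be told apart.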

How the data were processed

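RNA of isolated ventricular CMs from 3 CtrlCre and 3 Cpt1bcKO samples had been sequenced from a stranded total RNA kit. According to the methods and the submitters' processing notes, the authors checked reads with FastQC (0.11.8), trimmed them with Trimmomatic (0.36), aligned them with STAR (2.5.4b) to mm10 and counted reads in exons with featureCounts (1.6.0), leaving out reads on several genes or regions. Whether strand was used in counting is not given in the sources used here. The deposited values, recorded as a score, are DESeq2 normalized counts that the authors rounded to whole numbers. Because of that rounding no count model was used, and library depth is not given by the sums, which ran from 13393411 to 31722217. Of these sums 74.8 to 89.6% were mitochondrial and ribosomal RNA genes, leaving 3146414 to 3551692. The value that 1 read is worth could be estimated from gaps between low values in 5 samples, at 0.682 to 1.29, so values near 10 rest on about as many reads. Columns with the authors' own fold changes and p-values were not used.

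From the deposited values, log2(value + 1) was compared with limma 3.58.1 (R 4.3.3, eBayes with trend, no covariate, all 6 samples) over 11364 genes with at least 10 in at least 3 samples. Benjamini-Hochberg adjustment was over all of them, with a threshold of 0.05. Fold changes understate the change of low genes. The fit was tested on simulated data of the same size, where it called 49 of 100 genes changed by 1 and 98 of 100 changed by 2 on the log2 scale. The simulation gave every gene the same dispersion, drew samples independently and changed no genes of low mean. These shares therefore check the fit and are not the power for these data. Exon lengths, the exon structure and the sequences were read from GENCODE mouse release 21 (GRCm38); the annotation release used to count the RNA-seq reads is not given in the sources used here and its gene ends differ slightly, and gene positions are those deposited. The members and lists were chosen with earlier results of these data known. Named genes were the 10 members, from each list every gene passing the test and otherwise the 2 with the lowest p, the most abundant marker of each cell type, the 3 genes most like Cpt1b and its neighbours; the genes this names in the peroxisomal list are not reported here, and others named in a list were picked for their role or values after these had been seen. Alternatives were the pseudocount, the filter, the scaling, the prior variance, a replicate block, transcript length and leaving out samples.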

Additional observations from a re-analysis of the deposited data

How the results depend on the processing

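Pseudocounts of 0.5 and 5, no filter, a filter on every sample and recomputed scaling factors left each member on its side of the threshold and in its direction. With one prior variance for all genes, 41 rather than 178 genes passed, 0 members passed, and Cpt1b stayed at -2.27 with an adjusted p of 0.0563; Mid1ip1 (adjusted p = 0.112) and Nppa (0.0772) were lost too. Scaling to the sum without mitochondrial and ribosomal RNA genes turned the split of calls from 75 higher and 103 lower to 103 higher and 74 lower, and Lyz2 from -0.067 to 0.042. With the replicate number as a block, 603 genes passed; Cpt1b passed (adjusted p = 0.00135), no other member did, and Acsl3 (0.0402), Hadhb (0.0223) and Pdk4 (4.35e-04) did. The labels do not say what a number marks: deviations of same-numbered samples correlated at 0.376, 0.255 and 0.0684, and the samples numbered 3 each correlated more with a sample numbered 2 of the other group (0.147 and 0.119), so the numbers were not used as pairs. The samples numbered 1 also differ from the rest in Xist and Y-linked RNA, which does not separate numbers 2 and 3. Mlycd was higher in Cpt1bcKO within each number, and under the block its estimate of 0.38 had an SE of 0.14 (adjusted p = 0.167).

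Leaving out 1 sample gave 42 to 329 genes passing (68 without CtrlCre sample 3, 78 without 2, 86 without 1), a Cpt1b estimate of -2.56 to -2.03 and adjusted p of 0.00304 to 0.0225, and 1 member passing throughout. Estimates changed sign within the ranges of Slc25a20 (-0.22 to 0.46), Cpt2 (-0.48 to 0.077), Crot (-0.064 to 0.23), Acaca (-0.024 to 0.28) and Mlycd (-0.012 to 0.78), of the log2 ratios Acacb to Mlycd (-0.44 to 0.52) and Crat to Crot (-0.034 to 0.18), and of Rgs5 (-0.35 to 0.45) and Lyz2 (-0.18 to 0.031); Acsl3 ranged from 0.91 to 1.40 and passed without Cpt1bcKO sample 1 (adjusted p = 0.0290). Nppa was lost without Cpt1bcKO sample 2 (0.0527). With pairs of samples left out, 239 genes passed without both samples 1, 4 without both samples 2 and 5 without both samples 3. Without both samples 3, 0 members passed and Cpt1b was -2.24 (adjusted p = 0.104, limma). Shmt1 (0.277 and 0.0812) and Nppa (0.281 and 0.0938) were lost without both samples 2 and without both samples 3. Mid1ip1 was lost without any of the 3 pairs (0.0651, 0.394 and 0.0552). Without both samples 1, Acsl3 passed (1.36, 0.0484), and Slc25a20 was -0.050, Kdr -0.037 and Rgs5 -0.45; without both samples 2, Acacb to Mlycd was -0.029 and Crat to Crot -0.0086; without both samples 3, Acacb to Mlycd was -0.24 and Lyz2 0.034. The causes of these shifts were not tested; fewer samples were fitted. Per kb of the longest transcript instead of all exons, control levels were 71.8 for Cpt1a, 115 for Slc25a20, 242 for Crat, 127 for Crot and 3.75 for Acaca, which places Crot and Slc25a20 above Mlycd (80.01). Cpt1c was below the filter and has no value in the fits, and Acaca, at 30 to 48, had the lowest values of the members tested.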
